A study of Homo sapiens with 15 samples.

Results

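The genes described here encode the extracellular matrix and the enzymes that crosslink, anchor or cut it. The 47 genes were chosen by name, over collagens, laminins, microfibril proteins, proteoglycans, matricellular proteins, lysyl oxidases, matrix proteases and protease inhibitors. Earlier results of these data were known when they were chosen. All 47 had at least 1 probe set among the 19775 genes measured. They had 150 probe sets in all, the brightest one on average over the 15 arrays stood for the gene, and 7 genes had a single probe set.

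RNA from 2 ovarian carcinoma lines was measured on Affymetrix expression arrays in 5 groups of 3 biological replicates. CP70, a cisplatin-resistant derivative of A2780, received both drugs, decitabine alone, PXD101 alone or no drug. Each drug was used at 0.1 µM. Decitabine was on the cells for 48 h, and PXD101 for 24 h in the combination and 48 h alone. A2780, the cisplatin-sensitive parent, was untreated. Treated cells were harvested 96 h after drug removal, and no array was taken earlier. Exposure to PXD101 was shorter in the combined arm than alone. Decitabine is a cytosine analog that traps DNA methyltransferases, and PXD101 (belinostat) inhibits histone deacetylases. CP70 is 1 derivative of 1 parent line, and both lines were grown alone, without the stromal cells that make most matrix in a tumour.

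Fibrillar collagens are secreted as procollagens and assembled into fibres, which lysyl oxidases then crosslink. Laminins and type IV collagen form basement membranes, and fibrillins with their associated glycoproteins form microfibrils that hold latent TGF-beta. Matricellular proteins such as SPARC, thrombospondins and the CCN proteins sit in the matrix and alter how cells attach and signal, while matrix metalloproteinases and ADAMTS enzymes cut it and TIMPs inhibit them.

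Levels below are log2 values as deposited, and a change is the mean log2 level of one group minus that of another, given with its standard error (SE, n = 3 arrays per group). A gene was called at an adjusted p under 0.05 in limma, with Benjamini-Hochberg adjustment over all 19775 genes. A level below 4.34 log2, the lower quartile of all gene values, is close to the floor of the arrays, so that folds from it are poorly measured. COL4A1 and COL4A2, the main chains of type IV collagen, were below it on all 15 arrays, 6 genes (LAMA4, LAMB1, TNC, LOXL1, ADAMTS5 and SERPINE2) were below it on some, and 39 on none. Levels of different genes are not set against each other, since each comes from its own probes.

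The untreated CP70 arrays were the least alike. Within-group correlations across genes, which are not independent replicates, were 0.993 to 0.997 in the 3 treated groups, 0.983 to 0.997 in untreated CP70 and 0.995 to 0.997 in A2780. Within untreated CP70, replicate 2 had correlations of 0.983 and 0.986 with replicates 1 and 3, lower than its 0.995 to 0.997 with arrays of the PXD101 group. The 3′ actin probe set exceeded the 5′ one, a sign of RNA quality, by 0.342 to 0.509 log2 on treated arrays other than decitabine replicate 3, which had 0.787, against 0.629 to 0.859 log2 in untreated CP70 and 0.337 to 0.377 log2 in A2780. The actin sign moved with the contrasts of untreated CP70, and its part in them was not tested. GAPDH, a second control of the same kind, did not set untreated CP70 apart. Its 3′ minus 5′ difference came to -0.026, 0.019 and -0.044 log2 on replicates 1, 2 and 3 of that group. All A2780 arrays lay between -0.0495 and -0.0141 log2. Treated arrays lay between -0.0547 and 0.0248 log2, except decitabine replicate 3 at 0.187 log2. Among the ovarian carcinoma markers, PAX8 lay between 6.97 and 7.48 log2 on all arrays, while WT1 and MUC16 were below the lower quartile on every one.

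**Figure D1:**
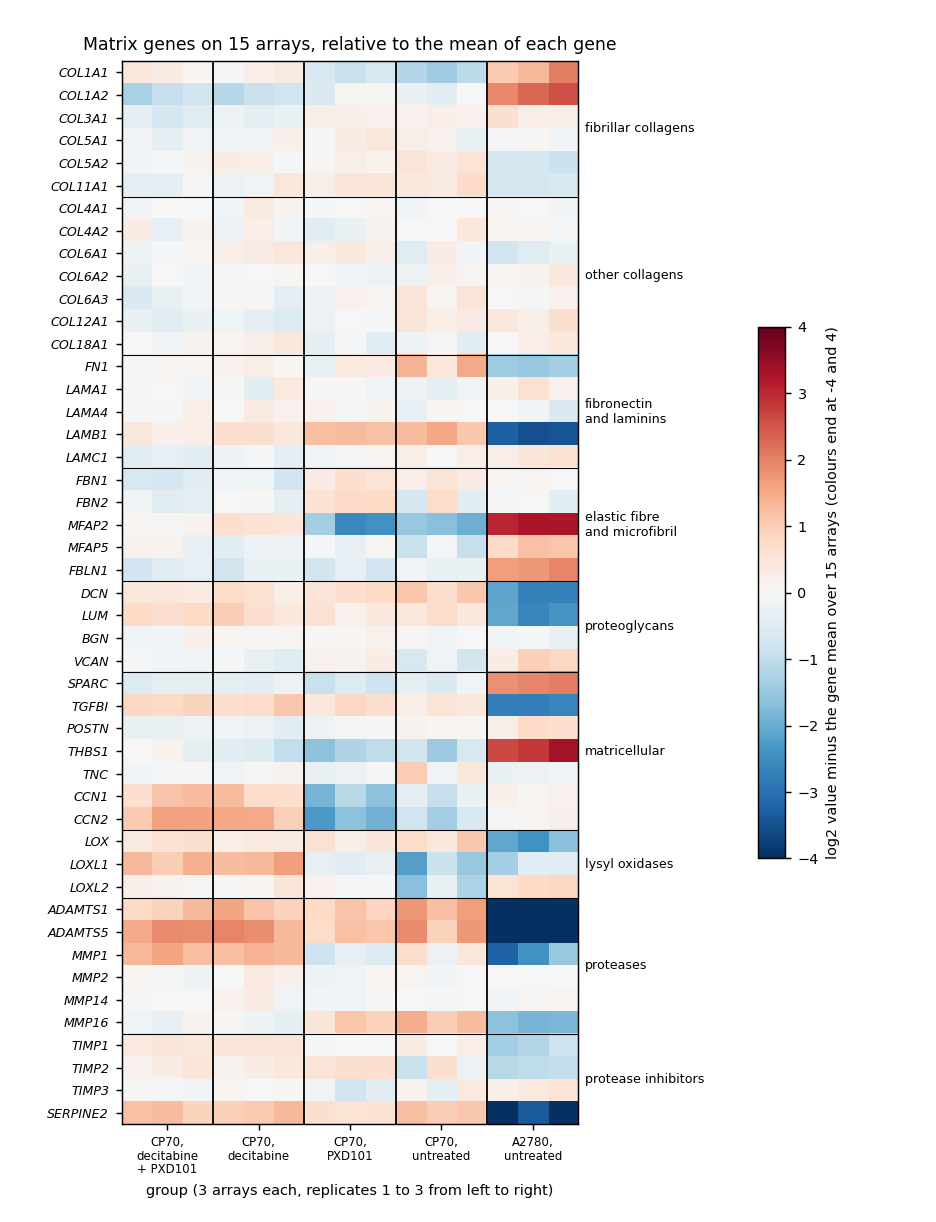
Heat map of the 47 matrix genes (down, by role) on 15 arrays (across, 3 per group), coloured by the log2 value minus the mean of that gene over all arrays. A2780 stands apart for ADAMTS1, ADAMTS5, SERPINE2, LAMB1, MFAP2 and THBS1, and both decitabine groups stand apart from the PXD101 and untreated CP70 groups for LOXL1, CCN1, CCN2 and MFAP2.

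The comparison of CP70 with A2780 asked how the matrix program of the resistant line differs from that of its parent. CP70 had higher levels of the proteases ADAMTS5, ADAMTS1 and MMP16, the protease inhibitor SERPINE2, the laminin chain LAMB1 and the small proteoglycans DCN and LUM. It had lower levels of the microfibril gene MFAP2, of THBS1 and SPARC, and of both chains of type I collagen. Of the 47 genes, 16 were higher and 15 were lower in CP70, against 16.1% and 15.2% of all genes. The arrays of the lines did not overlap for 30 of the 47, against 38.3% of all genes. The median size of the change was 1.03 log2 over the 47 genes, beside 0.186 log2 over all genes, while the median signed change was 0.05 and 0.01. These comparisons with all genes are a description, since the 47 were chosen with earlier results of these data known. In addition, 39 of them were never below the lower quartile, whereas all genes include many near the floor.

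The secreted proteases that cut proteoglycans showed the widest gaps. ADAMTS5, an aggrecan-cutting protease, had levels of 11.14, 10.17 and 10.98 log2 in CP70, against 3.28, 3.10 and 3.35 log2 in A2780. Every CP70 array was far above every A2780 array, and the A2780 values were at the low end of the scale. The change was 7.52 ± 0.23 log2 (184-fold, adjusted p = 1.41e-12), and all 4 probe sets were called higher. ADAMTS1, its neighbour in gene order on chromosome 21 and a protease of versican and aggrecan, had levels of 12.15, 11.60 and 12.09 log2 in CP70, against 5.78, 5.68 and 5.73 log2 in A2780. These arrays were also fully separated, at 6.21 ± 0.18 log2 (74.2-fold, adjusted p = 7.83e-13). MMP16, a membrane-anchored metalloproteinase, was higher by 3.03 ± 0.17 log2 and MMP1, the interstitial collagenase, by 2.69 ± 0.33 log2. MMP1 had levels of 12.44, 11.50 and 12.21 log2 in CP70, against 8.51, 9.32 and 10.24 log2 in A2780, a wide spread in A2780 that still did not reach CP70. MMP2 and MMP14, which were not called, changed by 0.01 and -0.05 log2.

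Of the 4 protease inhibitors, 3 were higher in CP70 and none lower, against 16.1% and 15.2% of all genes. SERPINE2, protease nexin 1, had levels of 8.81, 8.60 and 8.68 log2 in CP70, against 3.57, 4.24 and 3.42 log2 in A2780. All A2780 arrays were below the lower quartile and no array overlapped. The change was 4.95 ± 0.17 log2 (30.9-fold, adjusted p = 7.16e-12), but the second of its 2 probe sets was not called. TIMP1 and TIMP2 were higher by 1.31 ± 0.12 and 0.86 ± 0.25 log2, and TIMP3, which did not pass, changed by -0.33 ± 0.17 log2.

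The laminin chains and fibronectin went both ways. LAMB1, the beta 1 chain of laminins, had levels of 7.92, 8.20 and 7.73 log2 in CP70, against 3.38, 3.14 and 3.22 log2 in A2780. The A2780 values were at the low end on every array, and the change was 4.70 ± 0.12 log2 (26.0-fold, adjusted p = 1.61e-13). FN1, fibronectin, was higher by 2.56 ± 0.23 log2 (5.89-fold, adjusted p = 4.20e-07), although its CP70 arrays spread over 7.77, 6.84 and 7.93 log2, against 4.97, 4.88 and 5.01 log2 in A2780. LAMA1, the alpha 1 chain, was lower by a small amount, -0.58 ± 0.17 log2 (adjusted p = 0.0155), on the probe set used. Its second probe set, dimmer on average, changed by -4.31 log2, so the size of the LAMA1 difference depends on the probe set. LAMA4 and LAMC1 were not called, at 0.15 ± 0.16 and -0.28 ± 0.12 log2.

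The small leucine-rich proteoglycans decorin and lumican, which bind and space collagen fibrils, were both higher in CP70 and are neighbours in gene order on chromosome 12. DCN had levels of 10.13, 9.69 and 10.11 log2 in CP70, against 6.94, 6.35 and 6.35 log2 in A2780. Its arrays were separated by more than the spread within either line, at 3.43 ± 0.17 log2 (10.8-fold, adjusted p = 4.57e-10). LUM changed by 2.89 ± 0.16 log2. The large proteoglycan VCAN, versican, was lower by -1.19 ± 0.17 log2, and BGN, biglycan, was not called at 0.11 ± 0.10 log2.

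Type I collagen was lower in CP70 in both of its chains. COL1A1 had levels of 6.28, 6.03 and 6.40 log2 in CP70, against 8.49, 8.77 and 9.49 log2 in A2780. COL1A2 had levels of 8.58, 8.42 and 8.85 log2 in CP70, against 10.76, 11.12 and 11.42 log2 in A2780. No array of one line reached the other in either gene, and the changes were -2.68 ± 0.20 log2 (6.41-fold, adjusted p = 8.15e-08) for COL1A1 and -2.48 ± 0.20 log2 (5.58-fold, adjusted p = 1.99e-07) for COL1A2. Of the 5 COL1A1 probe sets, 3 were called lower and 2 were not called. Chains of the minor fibrillar collagens moved the other way, COL5A2 at 1.20 ± 0.11 and COL11A1 at 1.18 ± 0.17 log2. COL3A1, the neighbour of COL5A2 in gene order, was not called at -0.18 ± 0.11 log2, and neither was COL5A1 at 0.09 ± 0.15 log2. Among the 7 other collagens only COL18A1, the precursor of endostatin, was called, at -0.43 ± 0.15 log2 (adjusted p = 0.0404), with arrays that overlapped. It lost the call in 5 of the 7 fits that left out compared arrays, each in turn or untreated replicates 1 and 3 together. The chains of collagen VI, a beaded-filament collagen, changed by 0.40 ± 0.17 log2 for COL6A1, -0.18 ± 0.12 log2 for COL6A2 and 0.31 ± 0.16 log2 for COL6A3, and COL12A1 by -0.08 ± 0.13 log2, all without a call. COL4A1 and COL4A2, at the low end on every array, were not called in any comparison.

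The elastic fibre genes had 3 lower members of 5 and none higher, against 15.2% and 16.1% of all genes. MFAP2, a glycoprotein of fibrillin microfibrils, had levels of 6.05, 5.91 and 5.63 log2 in CP70, against 10.61, 10.84 and 10.85 log2 in A2780. Its arrays were tight in both lines and far apart, at -4.91 ± 0.22 log2 (30.0-fold, adjusted p = 1.50e-10). MFAP5 and FBLN1, a microfibril protein and fibulin 1, changed by -1.63 ± 0.21 and -2.01 ± 0.15 log2. The fibrillins themselves were not called, FBN1 at 0.35 ± 0.15 and FBN2 at 0.05 ± 0.27 log2.

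All 7 matricellular genes were called, 5 of them lower and 2 higher, against 15.2% and 16.1% of all genes. THBS1, thrombospondin 1, which activates latent TGF-beta and restrains vessel growth, had levels of 5.99, 5.28 and 6.09 log2 in CP70, against 9.36, 9.55 and 10.04 log2 in A2780. SPARC, a collagen-binding glycoprotein, had levels of 8.35, 8.15 and 8.56 log2 in CP70, against 10.58, 10.69 and 10.78 log2 in A2780. Both genes were lower on every CP70 array, THBS1 by -3.86 ± 0.24 log2 (14.5-fold) and SPARC by -2.32 ± 0.12 log2 (5.00-fold). TGFBI, a TGF-beta-induced adhesion protein, was higher by 3.12 ± 0.13 log2 (8.68-fold). CCN1 and CCN2 were lower by -0.68 ± 0.22 and -1.03 ± 0.22 log2, and POSTN, periostin, by -0.45 ± 0.12 log2. TNC, tenascin C, was higher by 0.65 ± 0.20 log2 with overlapping arrays, and was below the lower quartile on 14 of 15 arrays. The rank product test described below called none of CCN1, CCN2, POSTN and TNC.

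The lysyl oxidases split. LOX was higher in CP70 by 2.82 ± 0.18 log2 (7.05-fold) and LOXL2 lower by -1.79 ± 0.25 log2 (3.46-fold). LOXL1 was lower by -0.78 ± 0.28 log2 (adjusted p = 0.0470), but its CP70 arrays at 3.68, 5.01 and 4.35 log2 overlapped the A2780 arrays at 4.53, 5.47 and 5.38 log2, and 5 of the same 7 fits lost the call. CCN1 lost it in 4 such fits, TNC in 5, LAMA1 and POSTN in 2 and TIMP2 in 1, while every other called gene of this comparison kept it. Against A2780, untreated CP70 replicate 2 by itself gave -0.12 log2 for LOXL1, 0.07 log2 for TNC, -2.89 log2 for COL1A1, -0.98 log2 for LOXL2 and -4.86 log2 for MFAP2. Changes computed from replicate 2 alone, here and below, rest on 1 untreated array with no spread of its own, and are given as values without a test.

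**Figure D2:**
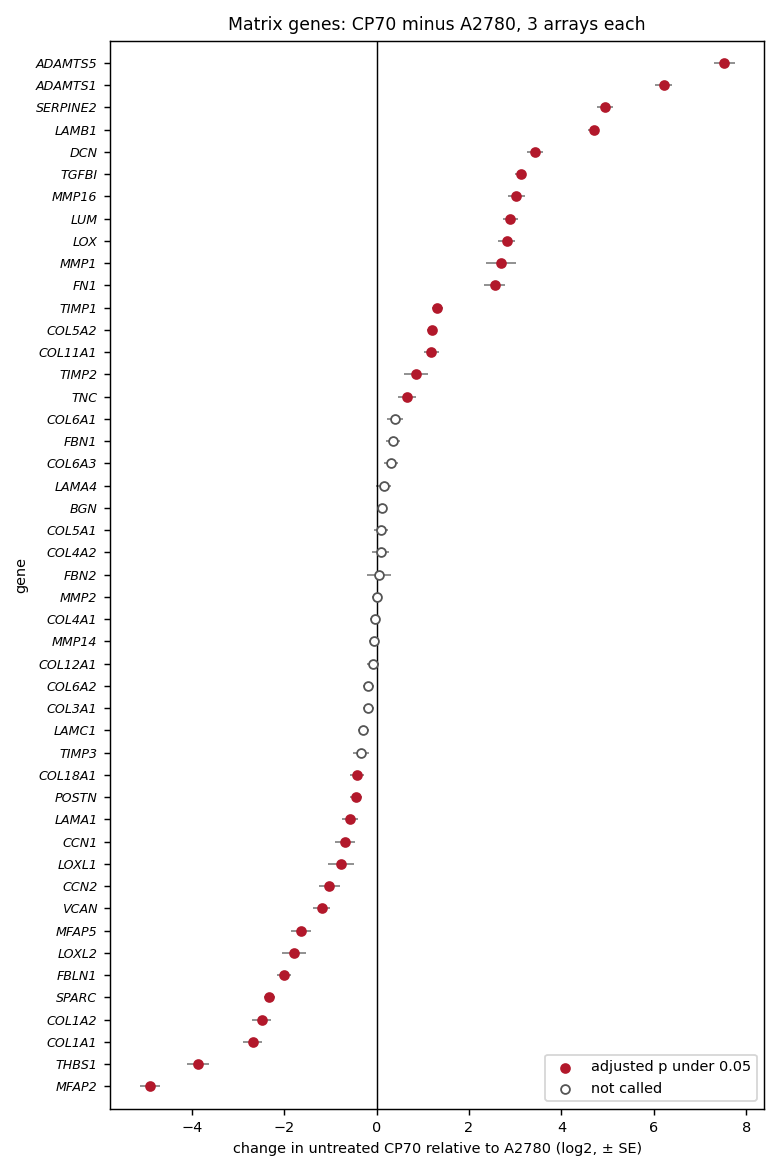
Change in untreated CP70 relative to A2780 for each of the 47 matrix genes (down), as a log2 difference of group means with its standard error (across, n = 3 arrays each). Filled points are the 31 called genes, and the extremes are ADAMTS5 at 7.52 and MFAP2 at -4.91 log2.

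Fibroblast markers moved with the line contrast. The summed level of the 5 markers was 32.7 to 35.1 log2 in CP70 and 37.8 to 38.3 log2 in A2780. Of the 5, 3 were lower and none higher in CP70 (all genes 15.2% and 16.1%), led by ACTA2, smooth muscle actin, at -2.71 ± 0.24 log2. FAP, a marker of activated fibroblasts, was below the lower quartile on all 15 arrays. Of 5 endothelial markers none was called, and CDH5, KDR and TIE1 were below the lower quartile on every array. These are bulk samples, in which fewer cells with a transcript and less of it per cell cannot be told apart. The part of the fibroblast markers in the matrix results was not tested.

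The comparison of decitabine with untreated CP70 asked which matrix genes differed 96 h after transient exposure to the demethylating drug. LOXL1, MFAP2, CCN2, COL1A1, CCN1 and LOXL2 rose by 2.41-fold to 7.66-fold, and MMP16 fell by 1.44 on the log2 scale. Smaller falls were found for FN1, FBN1, COL1A2, COL12A1, LAMB1 and COL3A1. In all, 7 genes rose and 7 fell of the 47, against 4.87% and 3.14% of all genes, and the arrays did not overlap for 23 of the 47, against 19.9%. None of the proteoglycans or protease inhibitors was called.

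LOXL1, which crosslinks elastin and associates with elastic fibres, had levels of 7.12, 7.19 and 7.55 log2 with decitabine, against 3.68, 5.01 and 4.35 log2 in untreated CP70. The untreated arrays were spread around the lower quartile and none came near the treated ones. LOXL1 rose by 2.94 ± 0.28 log2 (7.66-fold, adjusted p = 9.09e-06). LOXL2, which acts on collagen, had levels of 9.66, 9.69 and 10.10 log2 with decitabine, against 7.95, 9.36 and 8.34 log2 in untreated CP70. Untreated replicate 2 lay close to the treated arrays, and the rise of 1.27 ± 0.25 log2 (adjusted p = 0.00597) was 0.46 log2 against replicate 2 alone and 1.67 ± 0.15 log2 against replicates 1 and 3. Only 1 of the 4 LOXL2 probe sets was called higher, and their changes ran from -0.12 to 1.27 log2. LOX did not pass, at -0.43 ± 0.18 log2.

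CCN1 and CCN2, secreted matricellular proteins that are classic targets of the YAP and TEAD transcription factors and of TGF-beta, rose together. CCN2 had levels of 11.39, 11.36 and 10.78 log2 with decitabine, against 9.05, 8.46 and 9.21 log2 in untreated CP70. CCN1 had levels of 10.83, 10.29 and 10.24 log2 with decitabine, against 9.19, 8.66 and 9.31 log2 in untreated CP70. In both genes each treated array exceeded each untreated one, with rises of 2.27 ± 0.22 log2 for CCN2 (4.81-fold, adjusted p = 1.36e-05) and 1.40 ± 0.22 log2 for CCN1 (2.64-fold, adjusted p = 0.00104). Against untreated replicate 2 alone the differences were 2.71 log2 for CCN2 and 1.79 log2 for CCN1. THBS1, also a target of these factors, did not pass at 0.29 ± 0.24 log2. TGFBI rose by only 0.44 ± 0.13 log2 (adjusted p = 0.0465) and lost the call in 5 of the 7 fits that left out untreated or decitabine arrays.

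The chains of type I collagen parted. COL1A1 had levels of 7.42, 7.74 and 7.81 log2 with decitabine, against 6.28, 6.03 and 6.40 log2 in untreated CP70. COL1A2 had levels of 7.70, 7.95 and 8.05 log2 with decitabine, against 8.58, 8.42 and 8.85 log2 in untreated CP70. COL1A1 was higher and COL1A2 lower on every treated array, at 1.42 ± 0.20 log2 (2.68-fold, adjusted p = 0.000512) and -0.72 ± 0.20 log2 (1.64-fold, adjusted p = 0.0452). The rise of COL1A1 was called in 2 of its 5 probe sets, and the fall of COL1A2 lost its call without any of the decitabine arrays and without untreated replicate 1, 3 or both. COL3A1 fell by 0.47 on the log2 scale (adjusted p = 0.0204), a call lost in 5 of the 7 fits that left out arrays, and it changed by -0.31 log2 without a call with the mean of all its probe sets. COL12A1, a collagen that binds the surface of fibrils, had levels of 6.41, 6.21 and 6.04 log2 with decitabine, against 7.05, 6.80 and 6.92 log2 in untreated CP70. It was lower on every treated array, at -0.70 ± 0.13 log2 (adjusted p = 0.00305).

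MFAP2 had levels of 8.22, 8.14 and 8.06 log2 with decitabine, against 6.05, 5.91 and 5.63 log2 in untreated CP70. Its treated arrays lay together well above the untreated ones, at 2.28 ± 0.22 log2 (4.85-fold, adjusted p = 1.02e-05). FBN1, fibrillin 1, whose microfibrils MFAP2 decorates, moved the other way, with levels of 9.05, 9.02 and 8.42 log2 with decitabine, against 9.48, 9.76 and 9.54 log2 in untreated CP70. The fall was 0.76 on the log2 scale (SE 0.15, adjusted p = 0.00616), largest on decitabine replicate 3.

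Among laminins, fibronectin and proteases the called genes all fell. LAMB1 had levels of 7.33, 7.30 and 7.11 log2 with decitabine, against 7.92, 8.20 and 7.73 log2 in untreated CP70, and changed by -0.70 ± 0.12 log2 (adjusted p = 0.00199). MMP16 had levels of 7.60, 7.37 and 7.17 log2 with decitabine, against 9.05, 8.56 and 8.85 log2 in untreated CP70, and changed by -1.44 ± 0.17 log2 (2.71-fold, adjusted p = 0.000102). In both genes no treated array reached an untreated one. FN1 had levels of 6.58, 6.65 and 6.47 log2 with decitabine, against 7.77, 6.84 and 7.93 log2 in untreated CP70. Untreated replicate 2 was again nearest the treated arrays, and the change of -0.94 ± 0.23 log2 (adjusted p = 0.0185) was -0.27 log2 against replicate 2 alone and -1.28 ± 0.16 log2 against replicates 1 and 3. MMP1 was higher on every decitabine array, at 12.94, 13.12 and 13.03 log2 against 12.44, 11.50 and 12.21 log2 in untreated CP70, but did not pass at 0.98 ± 0.33 log2 (adjusted p = 0.0811). ADAMTS5, ADAMTS1 and SERPINE2, far higher in CP70 than in A2780, did not pass, at 0.18 ± 0.23, -0.32 ± 0.18 and 0.00 ± 0.17 log2.

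The genes called in opposite directions in the line contrast and the decitabine contrast were MFAP2, COL1A1, CCN1, CCN2, LOXL1 and LOXL2, lower in CP70 and raised by decitabine, and FN1, LAMB1 and MMP16, higher in CP70 and lowered by it. Of the 7 fits per contrast that left out arrays, 5 lost the line call of LOXL1 and 4 that of CCN1. The decitabine call was lost in 4 for FN1 and in 1 for LOXL2, and the other calls of these genes were kept. Both contrasts use the same 3 untreated CP70 arrays, so an error in these arrays moves both in opposite directions. Group means show how far each gene moved. MFAP2 averaged 8.14 ± 0.08 log2 with decitabine, 5.86 ± 0.22 log2 in untreated CP70 and 10.77 ± 0.14 log2 in A2780 (SD, n = 3). MMP16 averaged 7.38 ± 0.22 log2 with decitabine, 8.82 ± 0.24 log2 in untreated CP70 and 5.79 ± 0.13 log2 in A2780. With decitabine the means of both genes lay between those of the untreated lines. CCN2 averaged 11.17 ± 0.34 log2 with decitabine and 9.93 ± 0.13 log2 in A2780, and LOXL1 averaged 7.29 ± 0.23 log2 with decitabine and 5.13 ± 0.52 log2 in A2780, both above the mean of the parent line.

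**Figure D3:**
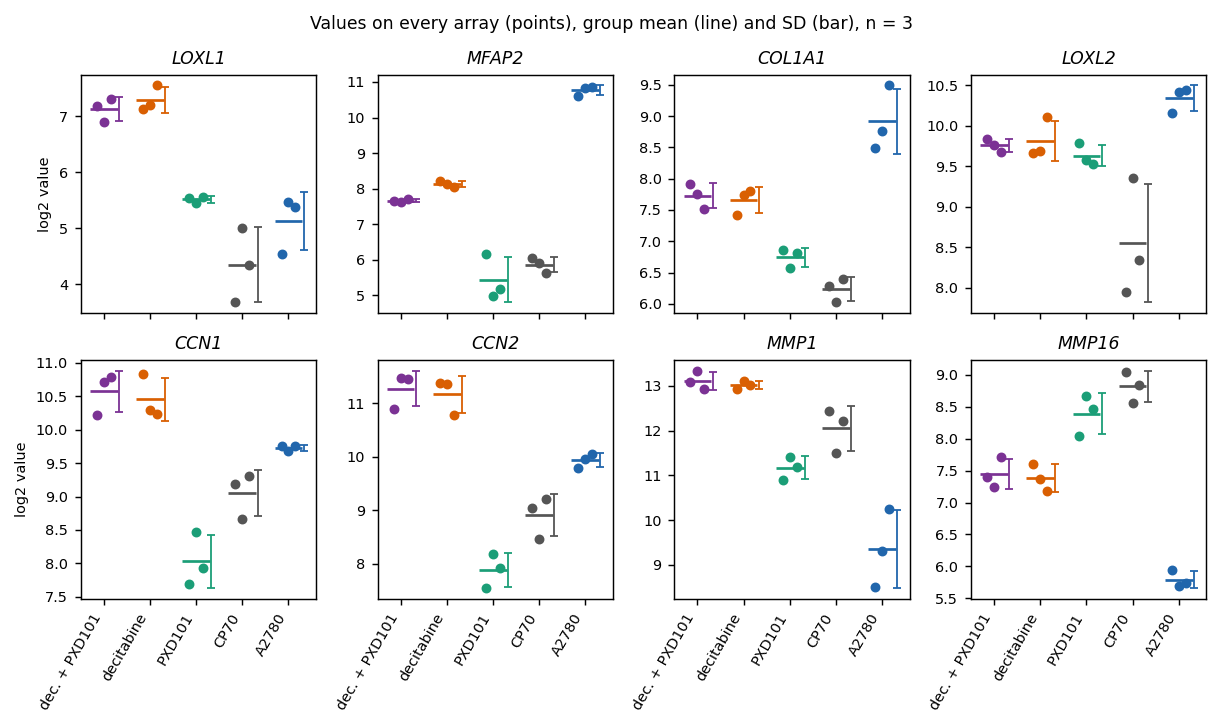
Levels (log2, vertical axis of each panel) of LOXL1, MFAP2, COL1A1, LOXL2, CCN1, CCN2, MMP1 and MMP16 on every array, with points for arrays, a line for the group mean and a bar for the SD (n = 3). In LOXL1, MFAP2, COL1A1, CCN1 and CCN2 all arrays of both decitabine groups lie above all PXD101 and untreated CP70 arrays, and in MMP16 they lie below them.

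The second test of decitabine set decitabine plus PXD101 against PXD101 alone. It shares no array with the first, although exposure to PXD101 was shorter in the combined arm. CCN2, CCN1, MFAP2, MMP1, LOXL1, THBS1, COL1A1 and TIMP1 rose, and FBN1, FBN2, MMP16, LAMB1, COL1A2, COL3A1, COL11A1 and LAMC1 fell. These 8 and 8 genes of 47 stand against 5.91% and 4.03% of all genes, and arrays did not overlap for 26 of the 47, against 33.3% of all genes. CCN1, CCN2, COL1A1, LOXL1 and MFAP2 rose in both tests, 71.4% of the 7 that rose in the first and 62.5% of the 8 that rose in the second. COL1A2, COL3A1, FBN1, LAMB1 and MMP16 fell in both, again 71.4% of 7 and 62.5% of 8, and no matrix gene was called in opposite directions. Over all genes, 529 rose in both, 54.9% of 963 and 45.3% of 1169, and 203 fell in both, 32.7% of 620 and 25.5% of 796.

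CCN2 had levels of 10.90, 11.47 and 11.46 log2 with both drugs, against 7.55, 8.19 and 7.93 log2 with PXD101. CCN1 had levels of 10.23, 10.71 and 10.79 log2 with both drugs, against 7.70, 8.46 and 7.92 log2 with PXD101. MFAP2 had levels of 7.65, 7.63 and 7.71 log2 with both drugs, against 6.17, 4.99 and 5.17 log2 with PXD101. All 3 genes were separated between these groups, with PXD101 replicate 1 the highest of its group for MFAP2. The rises were 3.39 ± 0.22 log2 for CCN2 (10.5-fold, adjusted p = 1.21e-07), 2.55 ± 0.22 log2 for CCN1 (5.84-fold, adjusted p = 2.49e-06) and 2.22 ± 0.22 log2 for MFAP2 (4.65-fold, adjusted p = 1.18e-05).

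MMP1 passed here, at 13.08, 13.33 and 12.94 log2 with both drugs against 10.90, 11.42 and 11.19 log2 with PXD101, a rise of 1.95 ± 0.33 log2 (3.85-fold, adjusted p = 0.00132). LOXL1 rose by 1.60 ± 0.28 log2 (3.04-fold), THBS1 by 1.22 ± 0.24 log2 (2.33-fold) and COL1A1 by 0.98 ± 0.20 log2 (1.98-fold). With the mean of all its probe sets COL1A1 changed by 0.32 log2 and was not called. LOXL2 did not pass, at 0.13 ± 0.25 log2, with levels of 9.83, 9.76 and 9.68 log2 with both drugs and 9.78, 9.58 and 9.53 log2 with PXD101. FN1, lowered in the first test, likewise did not pass at -0.11 ± 0.23 log2.

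FBN1 had levels of 8.57, 8.52 and 8.79 log2 with both drugs, against 9.52, 9.86 and 9.75 log2 with PXD101. FBN2, fibrillin 2, had levels of 8.21, 7.94 and 7.99 log2 with both drugs, against 8.92, 9.12 and 9.14 log2 with PXD101. MMP16 had levels of 7.40, 7.24 and 7.71 log2 with both drugs, against 8.04, 8.67 and 8.46 log2 with PXD101. All arrays with both drugs were below those with PXD101 in each gene. The changes were -1.08 ± 0.15 log2 for FBN1 (adjusted p = 0.000298), -1.02 ± 0.27 log2 for FBN2 (adjusted p = 0.0244) and -0.94 ± 0.17 log2 for MMP16 (adjusted p = 0.00270). In the first test FBN2 was not called. It averaged 8.23 ± 0.23 log2 with decitabine alone and 8.23 ± 0.76 log2 in untreated CP70 (SD), against 9.06 ± 0.12 log2 with PXD101. The FBN2 and LAMC1 calls were each lost in 5 of the 6 fits without 1 array, the TIMP1 call in 6, that of COL1A2 in 4 and that of COL11A1 in 3.

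**Figure D4:**
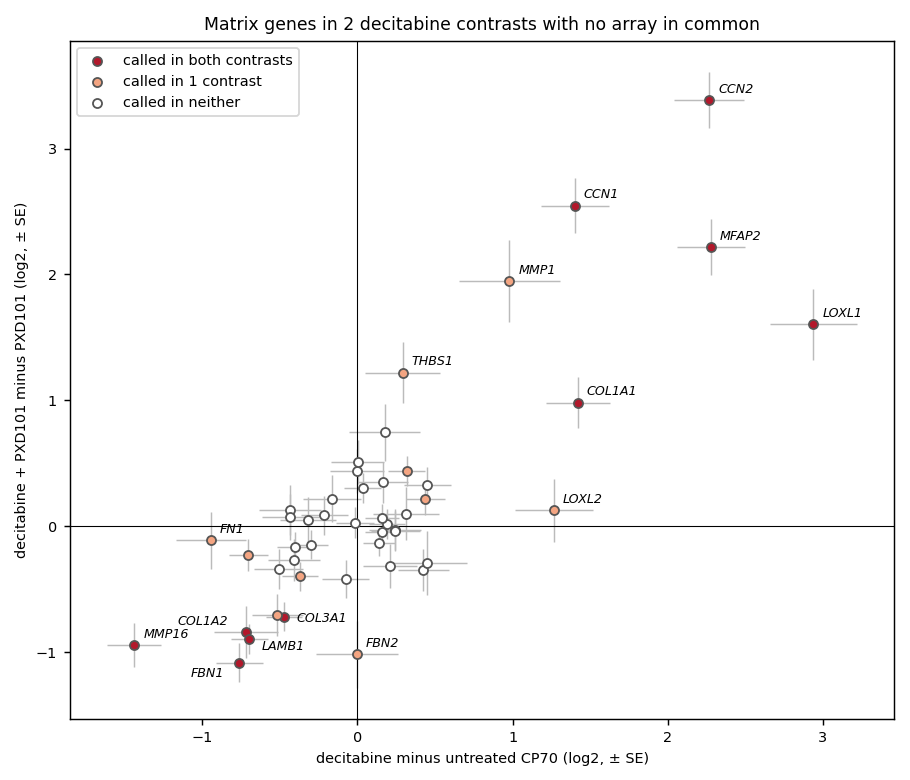
Changes (log2, with SE) of the 47 matrix genes with decitabine against untreated CP70 (horizontal) and with both drugs against PXD101 (vertical), which share no array. The 5 genes called higher in both lie at the upper right and the 5 called lower in both at the lower left, and LOXL2 and FN1 are among the genes called in 1 contrast, here the horizontal one.

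Decitabine acts at CpG dinucleotides, so the 250 bases upstream of the gene start are shown for the genes called the same way in both decitabine tests that have an entry in the RefSeq table (GRCh38.p14). The sequences run 5′ to 3′ on the strand of the gene, with each CpG in capitals. CCN2, LOXL1 and MFAP2 rose, and FBN1 and LAMB1 fell. Their windows are chr6:131951373-131951622 on the minus strand for CCN2, chr15:73926212-73926461 on the plus strand for LOXL1, chr1:16981584-16981833 on the minus strand for MFAP2, chr15:48644971-48645220 on the minus strand for FBN1 and chr7:108003162-108003411 on the minus strand for LAMB1.
CCN2: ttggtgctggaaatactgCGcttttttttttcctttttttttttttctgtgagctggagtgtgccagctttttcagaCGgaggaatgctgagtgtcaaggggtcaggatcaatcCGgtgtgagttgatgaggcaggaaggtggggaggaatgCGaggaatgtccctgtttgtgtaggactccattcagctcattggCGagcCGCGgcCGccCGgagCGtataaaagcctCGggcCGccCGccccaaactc
LOXL1: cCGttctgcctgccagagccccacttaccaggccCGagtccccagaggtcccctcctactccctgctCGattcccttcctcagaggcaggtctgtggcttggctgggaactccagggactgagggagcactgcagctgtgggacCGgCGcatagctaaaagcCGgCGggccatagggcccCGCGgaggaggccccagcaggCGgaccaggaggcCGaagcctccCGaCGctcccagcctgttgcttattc
MFAP2: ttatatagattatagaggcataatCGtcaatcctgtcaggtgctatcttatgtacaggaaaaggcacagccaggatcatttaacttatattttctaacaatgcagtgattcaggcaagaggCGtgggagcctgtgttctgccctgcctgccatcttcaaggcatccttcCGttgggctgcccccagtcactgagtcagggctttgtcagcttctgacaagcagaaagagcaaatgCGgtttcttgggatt
FBN1: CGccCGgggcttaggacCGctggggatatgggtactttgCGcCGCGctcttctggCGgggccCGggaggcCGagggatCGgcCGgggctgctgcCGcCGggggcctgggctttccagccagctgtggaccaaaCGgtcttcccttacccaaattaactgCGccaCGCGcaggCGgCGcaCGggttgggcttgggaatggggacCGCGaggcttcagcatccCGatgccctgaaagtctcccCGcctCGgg
LAMB1: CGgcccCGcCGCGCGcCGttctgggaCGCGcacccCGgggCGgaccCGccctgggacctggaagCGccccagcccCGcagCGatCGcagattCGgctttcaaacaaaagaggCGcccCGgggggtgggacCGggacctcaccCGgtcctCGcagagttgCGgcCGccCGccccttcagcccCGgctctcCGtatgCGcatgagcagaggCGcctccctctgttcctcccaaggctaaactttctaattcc

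The CCN2 and LOXL1 windows each held 13 CpGs and that of MFAP2 held 4, while FBN1 had 25 and LAMB1 had 28. Over the 27305 windows of the table the median was 11, with quartiles of 3 and 23. Of the 30 matrix genes with an entry, the 4 that rose with decitabine had 4 to 20 CpGs (median 13), the 4 that fell had 21 to 32 (median 26.5) and the 22 not called had 1 to 40 (median 14.5). In the second decitabine test the 5 that rose had 4 to 24, the 5 that fell 11 to 32 and the 20 others 1 to 40. These counts are a description, since methylation was not measured and CpG content differs widely among windows of every kind.

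Motifs were searched on both strands. CATTCC, the core bound by TEAD factors, occurred in 11.9% of all windows. The CCN2 window held it 3 times, 169, 104 and 95 bases upstream of the start, and it occurred once in those of FBN1, COL12A1, SPARC and THBS1. TATAAA, the TATA box core, occurred in 11.1% of all windows and lay 32 bases upstream of CCN2 and of COL6A2 and 182 and 29 bases upstream of POSTN. TGANTCA, the AP-1 site, occurred in 6.6% of all windows and lay 145 and 60 bases upstream of MFAP2 and 220 bases upstream of POSTN. A match shows letters, not binding.

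The comparison of PXD101 with untreated CP70 asked which genes differed after the deacetylase inhibitor alone. LOXL1, LOXL2 and VCAN rose, and CCN1, CCN2, FN1, TNC, ADAMTS1 and COL12A1 fell, by 0.44 to 1.17 log2 in size. The 3 and 6 genes of 47 stand against 5.57% and 5.15% of all genes, and arrays did not overlap for 15 of the 47, against 22.2%. CCN1 and CCN2 thus fell with PXD101 and rose with decitabine. Every one of these 9 calls was lost when untreated replicate 1 or 3 or any single PXD101 array was left out, so the values by array matter more here than the calls.

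CCN2 had levels of 7.55, 8.19 and 7.93 log2 with PXD101, against 9.05, 8.46 and 9.21 log2 in untreated CP70. CCN1 had levels of 7.70, 8.46 and 7.92 log2 with PXD101, against 9.19, 8.66 and 9.31 log2 in untreated CP70. The groups did not overlap in either gene, but replicate 2 of each group was the array nearest to the other group. CCN1 and CCN2 both fell by 1.02 on the log2 scale (adjusted p = 0.0221 and 0.0229).

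LOXL1 had levels of 5.54, 5.45 and 5.56 log2 with PXD101, against 3.68, 5.01 and 4.35 log2 in untreated CP70, a rise of 1.17 ± 0.28 log2 (adjusted p = 0.0268). LOXL2 had levels of 9.78, 9.58 and 9.53 log2 with PXD101, against 7.95, 9.36 and 8.34 log2 in untreated CP70, a rise of 1.08 ± 0.25 log2 (adjusted p = 0.0250). Only 1 of its 4 probe sets was called higher. VCAN had levels of 8.97, 8.91 and 9.09 log2 with PXD101, against 8.16, 8.66 and 8.05 log2 in untreated CP70, a rise of 0.70 ± 0.17 log2 (adjusted p = 0.0281). In all 3 genes untreated replicate 2 was the untreated array nearest to the PXD101 arrays.

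FN1 had levels of 6.11, 6.79 and 6.75 log2 with PXD101, against 7.77, 6.84 and 7.93 log2 in untreated CP70. ADAMTS1 had levels of 11.22, 11.55 and 11.28 log2 with PXD101, against 12.15, 11.60 and 12.09 log2 in untreated CP70. COL12A1 had levels of 6.34, 6.60 and 6.51 log2 with PXD101, against 7.05, 6.80 and 6.92 log2 in untreated CP70. Untreated replicate 2 was again nearest to the PXD101 arrays in each gene, and the changes were -0.96 ± 0.23, -0.60 ± 0.18 and -0.44 ± 0.13 log2 (adjusted p = 0.0253, 0.0467 and 0.0421). TNC changed by -0.65 ± 0.20 log2 (adjusted p = 0.0493) with overlapping arrays near the low end of the scale.

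With replicates 1 and 3 as the untreated arrays, 7 matrix genes rose and 14 fell, and calls over all genes numbered 3335 higher and 2401 lower. LOXL2 then rose by 1.49 ± 0.15 log2 and FN1 changed by -1.30 ± 0.16 log2, and FBN2 and TIMP2, at 0.83 and 0.78 log2 and not called with all arrays, rose by 1.26 ± 0.15 and 1.18 ± 0.16 log2. Against replicate 2 alone, the untreated array most like the PXD101 arrays, the differences were -0.63 log2 for CCN1, -0.57 log2 for CCN2, 0.50 log2 for LOXL1, 0.28 log2 for LOXL2 and -0.07 log2 for TNC. MMP1 was lower on every PXD101 array than on every untreated one but did not pass at -0.88 ± 0.33 log2 (adjusted p = 0.0923).

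**Figure D5:**
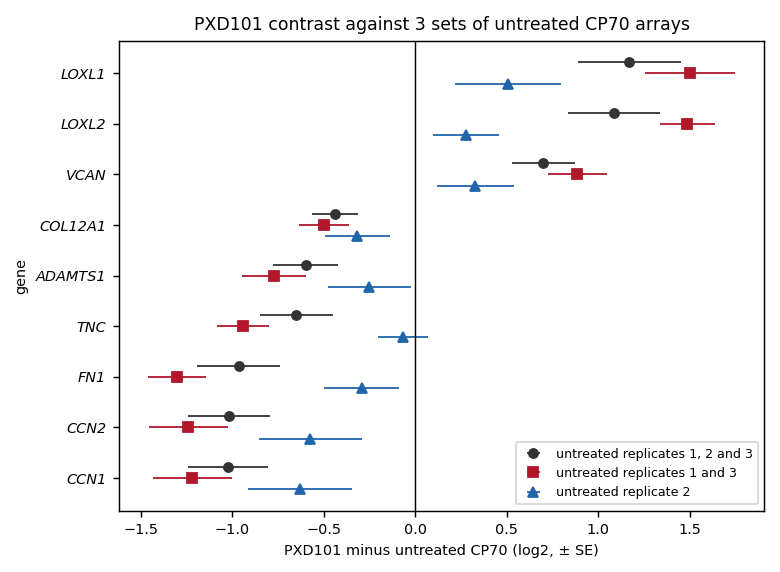
Change with PXD101 relative to untreated CP70 (log2 with SE, across) for the 9 called matrix genes (down), computed against untreated replicates 1, 2 and 3 (circles), 1 and 3 (squares) or 2 (triangles). Every gene keeps its direction and is farthest from 0 against replicates 1 and 3, and the error bars against replicate 2, a single array, take their spread from the other groups.

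The comparison of both drugs with untreated CP70 gave 8 higher and 11 lower matrix genes, against 6.17% and 4.22% of all genes, and arrays did not overlap for 25 of the 47, against 23.6%. LOXL1, CCN2, MFAP2, CCN1, COL1A1 and LOXL2 again headed the rises, joined by THBS1 and TGFBI. The falls were MMP16, FN1, LAMB1, FBN1, COL11A1, COL1A2, COL3A1, COL6A3, COL12A1, LAMC1 and COL5A2, with 4 of the 6 fibrillar collagens among them. Of these calls COL1A2 and COL5A2 were each lost in 5 of the 7 fits that left out arrays and COL6A3 in 3, and among the rises TGFBI was lost in 6. The same untreated arrays serve here as in the decitabine comparison, and the values are given side by side.

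LOXL1 had levels of 7.17, 6.89 and 7.30 log2 with both drugs, all above the untreated arrays, and rose by 2.77 ± 0.28 log2, beside 2.94 log2 with decitabine alone. CCN2 rose by 2.37 ± 0.22 log2, beside 2.27, and CCN1 by 1.52 ± 0.22 log2, beside 1.40. MFAP2 rose by 1.80 ± 0.22 log2, beside 2.28 with decitabine alone. COL1A1 had levels of 7.91, 7.75 and 7.52 log2 with both drugs and rose by 1.49 ± 0.20 log2, beside 1.42. MFAP2 was lower on each array with both drugs than on each decitabine array. THBS1 had levels of 6.73, 6.88 and 6.36 log2 with both drugs, against 5.99, 5.28 and 6.09 log2 in untreated CP70, and the rise of 0.87 ± 0.24 log2 (adjusted p = 0.0329) lost its call in 4 of the 7 fits that left out arrays, among them the fit without untreated replicate 2, at 0.62 log2.

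MMP16 changed by -1.37 ± 0.17 log2 with both drugs, beside -1.44 with decitabine alone, and FN1 by -1.07 ± 0.23, beside -0.94. LAMB1 had levels of 7.11, 6.88 and 6.93 log2 with both drugs, below all untreated arrays, and changed by -0.97 ± 0.12 log2, beside -0.70. FBN1 changed by -0.97 ± 0.15 log2, beside -0.76. COL11A1 had levels of 9.30, 9.28 and 9.61 log2 with both drugs, against 10.11, 10.05 and 10.43 log2 in untreated CP70, and no array overlapped. It fell by 0.80 on the log2 scale (SE 0.17, adjusted p = 0.00606), beside -0.52 log2 and no call with decitabine alone. Against untreated replicate 2 alone FN1 differed by -0.40 log2 and LOXL2 by 0.40 log2, and against replicates 1 and 3 by -1.41 ± 0.16 and 1.61 ± 0.15 log2. With both drugs, too, only 1 of the 4 LOXL2 probe sets was called higher.

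Adding PXD101 to decitabine called no matrix gene. Against decitabine alone, 0 of 47 were called in limma, THBS1 alone passed an unadjusted p under 0.05 as higher, 4 genes did so as lower, and 0.0101% of all genes were called. THBS1 differed by 0.58 ± 0.24 log2 and MFAP2 by -0.48 ± 0.22 log2, both with adjusted p = 1.00 and with arrays that did not overlap, as for 6 of the 47 genes against 10.6% of all genes. The non-additive response is what the change with both drugs leaves once the changes of the single drugs are subtracted. It was called for 0 of 47 matrix genes and 0.0152% of all genes, although an unadjusted p under 0.05 was reached by 5 upward and 4 downward. Its smallest p-values belonged to CCN1 at 1.14 ± 0.31, CCN2 at 1.12 ± 0.32 and LOXL1 at -1.33 ± 0.40 log2 (adjusted p = 0.191 for each). Without untreated replicate 2 the same term was called for 7 genes higher, CCN1 and CCN2 among them, and for 6 lower, LOXL1 and LOXL2 among them, and with array weights, all arrays kept, for 11 higher and 9 lower.

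ACTA2 moved with the treated groups as well, at 1.55 ± 0.24 log2 with both drugs, 1.48 ± 0.24 log2 with decitabine and 1.01 ± 0.24 log2 with PXD101. THY1 rose by 0.53 ± 0.16 log2 with both drugs and by 0.70 ± 0.16 log2 with decitabine. PDGFRA and PDGFRB were not called with any treatment. PDGFRA averaged 5.30 log2 with both drugs, 4.99 with decitabine and 5.13 with PXD101, against 5.17 in untreated CP70. PDGFRB averaged 6.54, 6.38 and 6.56 log2 in the same order, against 6.45. The fibroblast markers thus did not rise as a set. The summed level of the 5 fibroblast markers was 35.5 to 36.0 log2 with both drugs, 35.3 to 35.8 with decitabine and 34.7 to 35.9 with PXD101, against 32.7 to 35.1 in untreated CP70, with FAP at the low end throughout. Of 8 ovarian carcinoma markers, 4 rose with decitabine (all genes 4.87%), namely KRT19 at 2.67 ± 0.21 log2, KRT8, KRT18 and EPCAM. PAX8 and KRT7 were not called, at means of 7.30 and 6.22 log2 with decitabine against 7.28 and 6.11 in untreated CP70. In CP70 against A2780, 2 of the 8 were higher and none lower (all genes 16.1% and 15.2%). Of 4 leukocyte markers TYROBP rose with decitabine, by 1.30 ± 0.24 log2, and again with both drugs against PXD101, by 1.21 ± 0.24 log2, while PTPRC was below the lower quartile on every array. The part of these shifts in the matrix results was not tested.

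Other genes of the pathway were counted from lists of related genes. The counts below stand against all-gene shares of 16.1% higher and 15.2% lower in CP70 than in A2780, 4.87% and 3.14% with decitabine, and 5.57% and 5.15% with PXD101. The shares were 6.17% and 4.22% with both drugs against untreated CP70, and 5.91% and 4.03% with both drugs against PXD101. Calls of these lists and of the cell type markers are not given with arrays left out. This matters most for PXD101, where leaving out single arrays removed every call of a matrix gene. Of 15 TGF-beta ligands, receptors and latency proteins, 4 were higher and 6 lower in CP70 than in A2780 (all genes 16.1% and 15.2%), with the ligand TGFB2 at -2.60 ± 0.24 log2, the receptor TGFBR2 at 1.03 ± 0.12 and the signal transducer SMAD3 at -1.18 ± 0.15. With decitabine 3 rose and none fell: LTBP3, which holds latent TGF-beta in the matrix, at 1.42 ± 0.21 log2, the feedback inhibitor SMAD7 at 0.66 ± 0.13 and SMAD3 at 0.59 ± 0.15. SMAD7 and LTBP3 also rose with both drugs against PXD101, by 0.95 ± 0.13 and 1.08 ± 0.21 log2. With PXD101 alone 2 rose and 1 fell, and with both drugs against untreated CP70 4 rose and 1 fell.

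Of 26 other matrix proteases and inhibitors, 3 were higher and 6 lower in CP70 (all genes 16.1% and 15.2%), with the neutrophil collagenase MMP8 at -2.59 ± 0.15 log2, the urokinase receptor PLAUR at -1.63 ± 0.12 and ADAMTS6 at -1.91 ± 0.16. MMP8 and ADAMTS6 averaged 3.41 and 3.79 log2 in CP70, below the lower quartile, so the sizes of their changes are poorly measured. The plasminogen activators rose with decitabine, PLAT by 1.83 ± 0.19 log2 and PLAU by 1.46 ± 0.16, along with PLAUR by 0.70 ± 0.12, and 4 of the list rose and 1 fell. They rose again with both drugs against PXD101, PLAU by 1.83 ± 0.16 log2 and PLAT by 1.86 ± 0.19, with 4 higher and 2 lower. PLAT stood at 5.36 ± 0.32 log2 with decitabine and 3.53 ± 0.14 log2 in untreated CP70, below the lower quartile. With PXD101 alone the stromelysins MMP10 and MMP3 fell, both by 0.89 on the log2 scale, and 2 of the list rose and 2 fell.

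Of 23 integrins and other receptors, 4 were higher, near the 16.1% of all genes, and 1 was lower in CP70, with the syndecan SDC2 at -2.74 ± 0.14 log2, the laminin-binding chain ITGA6 at 1.48 ± 0.12 and SDC3 at 0.91 ± 0.13. Only ITGA3 was called with decitabine, at 0.46 ± 0.13 log2. With PXD101 ITGA5, ITGAV and ITGB1, chains of fibronectin and vitronectin receptors, changed by -0.90 ± 0.18, -0.51 ± 0.13 and -0.33 ± 0.09 log2, 3 lower against 1 higher. With both drugs against PXD101 2 of the receptors rose and 1 fell, and with both drugs against untreated CP70 only SDC4 rose, by 0.91 ± 0.24 log2.

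Of 12 other basement membrane genes, 7 were lower and 2 higher in CP70. LAMA2, the alpha 2 chain of laminins, was higher by 3.43 ± 0.12 log2, and COL4A6 and the linker protein NID1 were lower, at -2.51 ± 0.09 and -1.51 ± 0.12 log2. COL4A6 averaged 3.50 log2 in CP70, below the lower quartile. COL4A5 fell in both decitabine tests, by 1.01 and 1.05 on the log2 scale, and LAMB3 rose in both, by 0.57 ± 0.13 and 1.13 ± 0.13 log2. With decitabine 2 of the 12 rose and 1 fell, with both drugs against untreated CP70 1 rose and 2 fell, and with both drugs against PXD101 2 rose and 4 fell. NID2 was the single call with PXD101, at 0.82 ± 0.24 log2.

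Of 17 collagen processing genes, 4 were higher and 4 lower in CP70 (all genes 16.1% and 15.2%), with the procollagen proteinase enhancers PCOLCE at -0.65 ± 0.09 and PCOLCE2 at 1.04 ± 0.16 log2, and the lysyl hydroxylase PLOD3 at 0.40 ± 0.08 log2. None was called with decitabine or with PXD101. With both drugs PCOLCE and CRTAP, a cofactor of prolyl 3-hydroxylation, fell against untreated CP70, by 0.61 and 0.44 on the log2 scale. Against PXD101 4 of the 17 fell (all genes 4.03%), among them PCOLCE at -0.70 ± 0.09, CRTAP at -0.64 ± 0.09 and PCOLCE2 at -0.71 ± 0.16 log2.

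A rank product test, the method named in the design text, called 11 genes higher and 8 lower in CP70 than in A2780, against 2.68% and 2.52% of all genes. It called 6 higher and 2 lower with decitabine, against 1.29% and 0.571%, and 1 higher and 2 lower with PXD101, against 0.647% and 1.16%. With both drugs against untreated CP70 it called 6 higher and 4 lower, against 1.51% and 0.743%. No called matrix gene had a probe set called in the opposite direction in any comparison. All probe sets of a gene were called the same way for 12 of the 25 called genes with several probe sets in CP70 against A2780, 2 of 10 with decitabine, 0 of 7 with PXD101, 3 of 14 with both drugs against untreated CP70 and 3 of 11 with both drugs against PXD101. CCN1 was among those with full agreement in both decitabine tests, and CCN2 was measured by 1 probe set.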

How the data were processed

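RNA of 15 samples, 3 biological replicates in each of 5 groups, was amplified and hybridised to Affymetrix arrays, per the labels' protocols. The log2 values were used as deposited by the authors. Per the submitters' processing notes, affy under R 2.10.1 was used. How background, normalization and summarization were set is not stated in the labels or headers. Values ran from 2.386 to 14.524 log2, with array medians of 5.00 to 5.06, and 3 arrays per group limit the precision. P-values measure the spread between these replicates.

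Of 54675 probe sets, 41097 carried 1 gene symbol in the platform annotation, 1801 several and 11777 none. Only the first kind was used, with 1 probe set per gene, that of the highest mean over all arrays (19775 genes). limma 3.58.1 in R 4.3.3 fitted the 5 group means to all 15 arrays, with empirical Bayes moderation and Benjamini-Hochberg adjustment over all genes at 0.05. The procedure was tested on simulated data. Tables and figures were made with Python 3.11.15, numpy 2.4.6, pandas 2.3.3 and matplotlib 3.10.9.

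The genes and lists were chosen with earlier results of these data known. Values by array are given for the 5 largest called rises and falls without overlap in the comparisons with A2780 or untreated CP70, for the 3 largest (non-additive response: smallest p) in the others, and for genes called in opposite directions in the line and decitabine comparisons. Of each other list, up to 3 called genes per comparison were named by smallest p. Alternatives were a rank product test (100 permutations, 5% false positives), which the design text names, only the arrays compared, a replicate block, arrays left out, array weights, other probe set rules and other scalings.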

Additional observations from a re-analysis of the deposited data

How the results depend on the processing

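No called change of a matrix gene turned direction under the alternatives, and calls were lost in 231 of the 1294 results for called genes. Changes not called did turn: FBN2, at 0.05 log2 in CP70 against A2780, was -0.38 log2 without untreated replicate 2 and 0.92 log2 without replicates 1 and 3, and ADAMTS5, at 0.18 log2 with decitabine, was -0.12 log2 without replicate 2. With only the compared arrays in the fit, 2 genes fell with decitabine, 0 rose and 0 fell with PXD101, and 5 rose and 7 fell with both drugs against untreated CP70. With untreated replicate 2 as the only untreated array, changes are given as values without a test. FBN2 then differed by -0.87 log2 with decitabine and by -1.05 log2 with both drugs. With array weights, 16 rose and 16 fell with decitabine, 9 rose and 22 fell with PXD101, and 13 rose and 18 fell with both drugs. The non-additive response was then called for 11 higher and 9 lower. Counts over all genes are not given for array weights. The rank product called 8 genes lower in CP70 than in A2780, 2 lower with decitabine, 1 higher and 2 lower with PXD101, and 4 lower with both drugs. Median centring gave 12 lower with decitabine, and it moved the median change of all genes to -0.10 log2 with decitabine and to -0.10 log2 with both drugs. The cause of these differences was not tested, other than that the fits of fewer arrays have fewer samples.

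Leaving out 1 array at a time gave 14 to 17 higher and 10 to 15 lower in CP70 than in A2780, 6 to 11 higher and 4 to 15 lower with decitabine, 0 to 7 higher and 0 to 14 lower with PXD101, and 6 to 10 higher and 8 to 15 lower with both drugs. It gave 7 to 7 higher and 4 to 7 lower with both drugs against PXD101, and 0 to 7 higher and 0 to 6 lower for the non-additive response, whose upper ends came without untreated replicate 2. For the non-additive response, that fit called 1712 higher and 2347 lower over all genes. Replicate numbers did not pair the samples: deviations from group means correlated at -0.38 to 0.49 (median 0.02) over 30 pairs of the same number and at -0.46 to 0.47 over 60 pairs of different numbers. Some arrays did deviate together across groups. Untreated CP70 replicate 2, decitabine replicate 3, replicate 1 with both drugs and PXD101 replicate 1 correlated with each other at 0.37 to 0.49. The fit does not model this pattern, and its cause was not tested. With the replicate block, 3 matrix genes fell with PXD101, and 5 of the 89 calls of a matrix gene in a comparison were lost. In CP70 against A2780 the probe sets of a gene spread over 0.02 to 4.95 log2 for SERPINE2, -3.86 to 0.26 log2 for THBS1, -4.31 to -0.58 log2 for LAMA1 and -0.09 to 3.43 log2 for DCN.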
